A study of Mus musculus with 15 samples.

Results

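A set of 48 genes of the mature enterocyte, the absorptive cell of the gut lining, was followed in crypts of the mouse small intestine. The genes were picked by name for their roles in digestion, absorption and the brush border, and each was measured by the array probe with the highest mean red signal. They made up 48 of the 23939 features tested, of which 16058 had a gene name, and fall into 16 lipid, 10 sugar, 14 peptide and 8 cytoskeleton genes. The mice were 6 to 8 weeks old and were sampled 24 h after treatment, with 5 arrays in each of 3 groups. The N1N2 plus Lrp6 group had blocking antibodies against Notch1, Notch2 and Lrp6, the last at 30 mg/kg. The N1N2 group had the Notch1 and Notch2 antibodies without the Lrp6 antibody, and the control group had an IgG control antibody. For the Notch antibodies the labels state 1 mg/mL, which does not tell how much each mouse received. The design calls the arrays biological replicates and does not say whether each holds 1 animal or a pool, nor which part of the small intestine the crypts came from. It names N1N2 against control and N1N2 plus Lrp6 against N1N2 as its comparisons, and the third pair of groups is given beside them.

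Crypts hold the stem cells, the dividing progenitors and the Paneth cells of the intestine, while most mature enterocytes sit on the villi above them. Progenitors that receive Notch signals become absorptive cells, and those in which Notch is blocked turn to secretory fates. Wnt signals, for which Lrp6 is a co-receptor, maintain the stem cells and the Paneth cells. As they mature, enterocytes build an apical brush border of microvilli studded with digestive enzymes and transporters, and they package dietary fat into lipoproteins.

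Each array set crypt RNA in the red channel against a universal mouse reference RNA in the green channel, and levels are log2 ratios of crypt over reference. Between 57.25% and 73.63% of spots were well above background in red on the N1N2 plus Lrp6 arrays, between 70.08% and 77.16% on the N1N2 arrays and between 71.13% and 79.77% on the control arrays. All 48 enterocyte genes were well above background in red on all 15 arrays, as were 74.4% of all features, so that none was lost to the filter on dim probes. All 48 also had a mean log2 ratio above 0 in all 3 groups, from 0.71 for Cd36 in N1N2 to 9.87 for Fabp1 in N1N2. In the green channel 38 of the 48 were well above background on all 15 arrays and Slc6a19 on none. The other 9 were Abcg8 (1 array), Slc10a2 (3), Slc15a1 (4), Slc2a2 (7), Pck1 (7), Pls1 (9), Mgam (13), Apob (14) and Slc3a1 (14), and on the remaining arrays the ratios of these 10 genes rest on a reference signal that was not well above background. The arrays lay on 6 slides. Slides held 1 group each except for 1 slide with 2 N1N2 and 2 control arrays, so that for the N1N2 plus Lrp6 arrays slide and treatment cannot be told apart. In a bulk sample fewer cells of a type and less RNA per cell cannot be told apart either.

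The promoters of 4 of the genes are printed here because the results turn on them: Ada and Mgam passed a test, Slc10a2 had the largest fitted difference in size, and Sis was chosen after its values were seen. Each runs from 250 bases before to 50 bases after the start of the gene, 5′ to 3′ on the gene's strand, from RefSeq on GRCm38.p6. The windows are chr2:163750190-163750489 (minus strand) for Ada, chr6:40628581-40628880 (plus strand) for Mgam, chr8:5105238-5105537 (minus strand) for Slc10a2 and chr3:72967814-72968113 (minus strand) for Sis. Capitals mark matches, on either strand, to the letters searched for 4 families of intestinal transcription factors.
Ada: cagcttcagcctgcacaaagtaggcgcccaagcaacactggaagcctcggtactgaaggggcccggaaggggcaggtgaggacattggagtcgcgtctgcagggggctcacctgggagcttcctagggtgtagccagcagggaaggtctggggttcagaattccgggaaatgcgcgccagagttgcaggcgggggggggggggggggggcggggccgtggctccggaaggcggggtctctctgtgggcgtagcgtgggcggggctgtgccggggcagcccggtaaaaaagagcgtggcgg
Mgam: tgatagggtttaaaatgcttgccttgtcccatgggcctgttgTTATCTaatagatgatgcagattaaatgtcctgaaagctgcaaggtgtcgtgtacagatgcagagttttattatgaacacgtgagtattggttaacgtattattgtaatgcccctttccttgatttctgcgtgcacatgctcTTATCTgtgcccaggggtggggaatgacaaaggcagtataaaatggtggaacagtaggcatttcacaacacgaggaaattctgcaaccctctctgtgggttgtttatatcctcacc
Slc10a2: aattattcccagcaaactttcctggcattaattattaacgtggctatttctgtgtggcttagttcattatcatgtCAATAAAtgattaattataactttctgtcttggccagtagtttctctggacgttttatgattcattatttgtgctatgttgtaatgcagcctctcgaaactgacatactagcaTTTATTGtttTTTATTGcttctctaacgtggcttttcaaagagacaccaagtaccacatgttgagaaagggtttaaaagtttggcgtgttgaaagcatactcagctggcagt
Sis: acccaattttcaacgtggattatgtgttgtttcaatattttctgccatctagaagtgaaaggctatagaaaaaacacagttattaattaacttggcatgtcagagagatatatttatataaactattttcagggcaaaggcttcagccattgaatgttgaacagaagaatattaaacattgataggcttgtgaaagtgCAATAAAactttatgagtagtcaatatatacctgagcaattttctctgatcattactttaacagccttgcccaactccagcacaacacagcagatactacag
The letters were CAAAGTC for HNF4, TTTATNG for CDX and AGATAA for GATA, with the HNF1 palindrome searched beside them, and no 2 matches overlapped in these 4 windows. Ada held none. Mgam held the GATA letters at -208 and -66 from the gene start, Slc10a2 the CDX letters at -175, -62 and -52, and Sis the CDX letters at -52. Promoter sequences were at hand for 43 of the 48 genes. The HNF4 letters occurred in 6 of them (14%), against 5% of 27025 genes. The CDX letters occurred in 13 (30.2%), against 12.5% of all genes, and the GATA letters in 10 (23.3%), against 12.7%. The HNF1 palindrome was in none of the 43 windows and in 0.0111% of all windows. A match describes the letters of the window and nothing more.

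Blocking Notch1 and Notch2 left 47 of the 48 enterocyte genes without a called difference, and adding the Lrp6 antibody did the same. In N1N2 against control, 1 gene (Ada) fell and 0 rose by limma with Benjamini-Hochberg adjustment over all features at 0.05. Among all features, 11.7% were called in that comparison (6.57% higher and 5.15% lower). Relative to N1N2, 1 gene (Mgam) fell and 0 rose in N1N2 plus Lrp6, where 16.7% of all features were called (9.44% higher and 7.26% lower). Between N1N2 plus Lrp6 and control, 0 of 48 were called by limma, where 0.376% of features were (0.221% higher and 0.155% lower), and 3 (Espn, Ada and Mgam) had an unadjusted p under 0.05. The counts at that unadjusted limit were 8 of 48 in N1N2 against control and 7 of 48 in N1N2 plus Lrp6 against N1N2, against 26.2% and 29.1% of all features, and 13.0% of features in the third comparison.

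**Figure D1:**
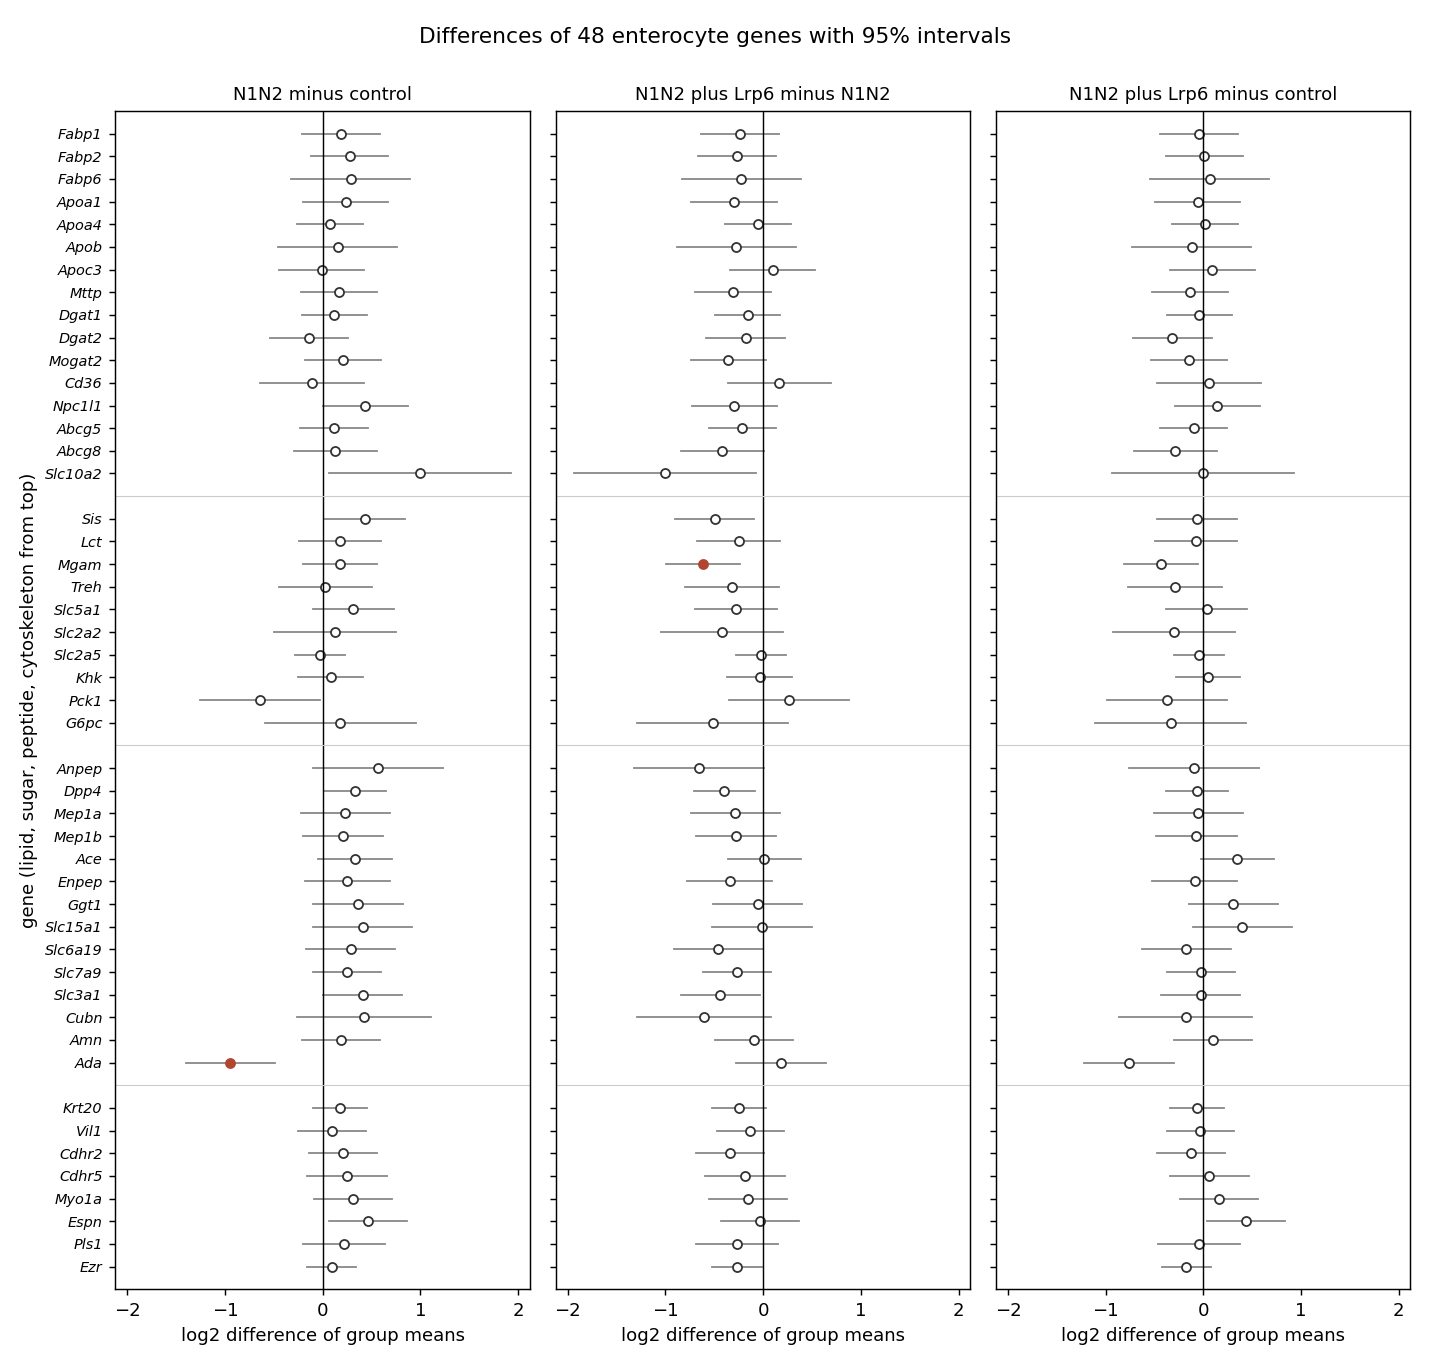
Differences of group means (log2, x axis) of the 48 enterocyte genes (y axis, in 4 blocks by role) in the 3 comparisons, with bars for 95% intervals. Filled points passed limma at an adjusted p of 0.05 over all features: Ada in the left panel and Mgam in the middle one.

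Taken over all 48 genes, called or not, the differences leaned one way. In N1N2 against control, 42 of 48 lay above 0 after loess, with a median of 0.21 on the log2 scale, while 49.6% of all features lay below 0 and the median of all features was 0.002. With the Lrp6 antibody added, 43 of 48 lay below 0 with a median of -0.27 for N1N2 plus Lrp6 minus N1N2, while 50.2% of all features lay below 0. Both comparisons use the N1N2 arrays, so the opposite leanings are not independent of each other. Between N1N2 plus Lrp6 and control, 33 of 48 lay below 0 with a median of -0.06, while 46.1% of all features lay below 0. Without N1N2 plus Lrp6 replicate 1 only 13 of 48 lay below 0 there and the median was 0.08. Both shifts that involve N1N2 were close in size to the pooled SD between arrays of the median of the 48 genes (0.26). That SD is for single arrays and is not the standard error of a difference between groups. The shifts also changed with median centring. With median centring in place of loess the median was -0.01 in N1N2 against control, with 25 of 48 genes below 0, and 0.03 in N1N2 plus Lrp6 against N1N2, with 22 below 0. Scaling arrays to each other gave -1.52 and 0.19, but it multiplies every log ratio of an array, so genes with ratios as high as these 48 move together by construction. The 95% interval lay within a 2-fold difference in either direction for 43 genes in N1N2 against control, for 43 in N1N2 plus Lrp6 against N1N2 and for 46 in N1N2 plus Lrp6 against control.

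**Figure D2:**
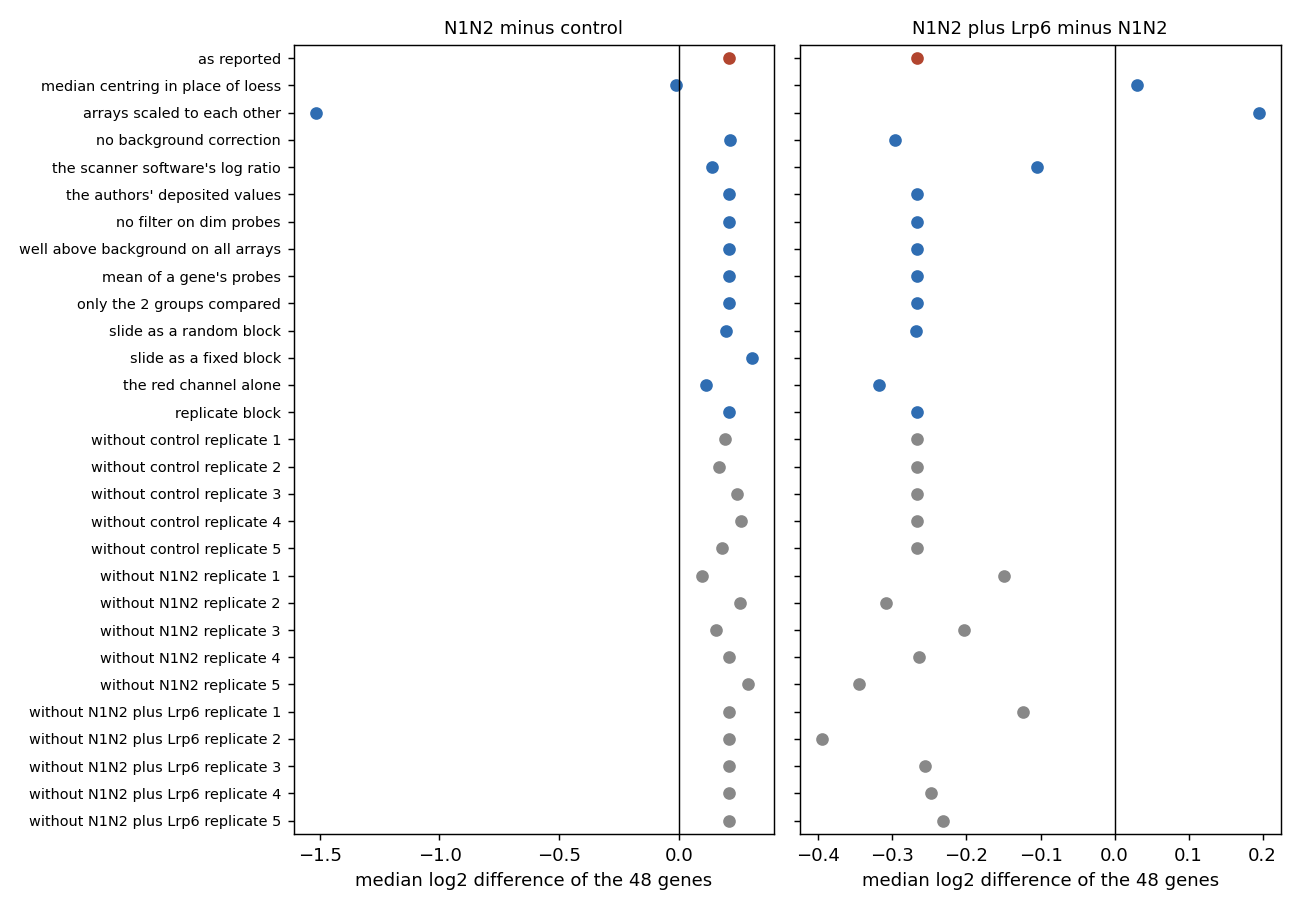
Median log2 difference of the 48 enterocyte genes (x axis, 1 scale per panel) under each way of processing the arrays and without each array in turn (y axis). The median of N1N2 minus control is 0.21 as reported and -0.01 with median centring, and that of N1N2 plus Lrp6 minus N1N2 is -0.27 and 0.03, while scaling moves all 48 genes together by construction.

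None of the 16 lipid genes was called in any comparison by limma, with unadjusted p under 0.05 for 2 (Slc10a2 and Npc1l1), 1 (Slc10a2) and 0 of them in N1N2 against control, N1N2 plus Lrp6 against N1N2 and N1N2 plus Lrp6 against control. Slc10a2, the apical sodium-dependent transporter that takes up bile acids in the ileum, had the largest fitted difference of the 48 genes in size between N1N2 and control (Ada was next), and again between N1N2 plus Lrp6 and N1N2. Its reference signal was well above background on 3 of the 15 arrays. It had log2 ratios of 3.93, 4.82, 4.96, 4.84 and 3.56 on the N1N2 plus Lrp6 arrays, and of 5.98, 5.55, 6.34, 4.69 and 4.54 on the N1N2 arrays. Control arrays had 3.80, 4.22, 5.69, 4.94 and 3.48 for Slc10a2. Its high values were on N1N2 replicates 1 to 3 and on control replicate 3, and all 3 groups overlapped. It averaged 5.42 ± 0.79 in N1N2 and 4.43 ± 0.89 in control (SD, n = 5 each). The difference was 0.996 on the log2 scale, with a 95% interval of 0.07 to 1.93 and an adjusted p of 0.16 by limma. Without control replicate 5 it was 0.76, smaller in size than that of Ada (-0.90). With the Lrp6 antibody it averaged 4.42 ± 0.63 (SD, n = 5), a difference from N1N2 of -0.999 (95% interval -1.93 to -0.07, adjusted p = 0.14 by limma). Npc1l1, the sterol transporter through which cholesterol enters the enterocyte, came next in this group. Npc1l1 had log2 ratios of 4.62, 5.90, 5.71, 5.53 and 5.09 on the N1N2 plus Lrp6 arrays, and of 6.12, 5.38, 5.79, 5.39 and 5.65 on the N1N2 arrays. Control arrays had 5.21, 5.07, 5.26, 5.46 and 5.15 for Npc1l1. The control values lay close together, all within the N1N2 plus Lrp6 range and 1 of them within the N1N2 range. The difference of N1N2 from control was 0.44 with a limma adjusted p of 0.19.

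Among the other lipid genes are the fatty acid-binding proteins. Fabp1 averaged 9.64 ± 0.41 in N1N2 plus Lrp6, 9.87 ± 0.36 in N1N2 and 9.68 ± 0.16 in control (SD, n = 5 each). Fabp2 averaged 9.31 ± 0.39, 9.58 ± 0.35 and 9.30 ± 0.20 in the same groups. Fabp6, which binds bile acids in the ileum, averaged 7.83 ± 0.68 in N1N2 plus Lrp6, 8.06 ± 0.53 in N1N2 and 7.77 ± 0.15 in control. None of the 3 passed the test in any comparison. The apolipoproteins Apoa1, Apoa4, Apob and Apoc3 and Mttp, which loads lipid onto Apob, had differences of N1N2 from control between -0.01 (Apoc3) and 0.24 (Apoa1). Apob differed by 0.16 with the probe used here and by 0.39 with its second probe, which was also well above background in red on every array. The enzymes of triglyceride synthesis Dgat1, Dgat2 and Mogat2 differed from control by 0.12, -0.14 and 0.21. The fatty acid receptor Cd36 differed by -0.11, and Abcg5 and Abcg8, which together pump plant sterols and cholesterol back into the gut, by 0.12 and 0.13. On adding the Lrp6 antibody, Abcg8 differed by -0.42 from N1N2 (adjusted p = 0.18 by limma) and Abcg5 by -0.21. Apob differed from N1N2 by -0.28 there, and by -0.67 with its second probe.

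In the sugar group Mgam, the maltase-glucoamylase that splits starch fragments at the brush border, fell on adding the Lrp6 antibody. It had log2 ratios of 5.55, 5.61, 6.27, 5.64 and 6.06 on the N1N2 plus Lrp6 arrays, and of 6.55, 6.37, 6.91, 6.31 and 6.04 on the N1N2 arrays. Control arrays had 6.08, 5.99, 6.64, 6.47 and 6.10 for Mgam. Lrp6-treated replicates 1, 2 and 4 were below every N1N2 and control array, while replicates 3 and 5 lay within the N1N2 range. It averaged 5.82 ± 0.32 in N1N2 plus Lrp6 and 6.44 ± 0.32 in N1N2 (SD, n = 5 each), 1.53-fold lower with the Lrp6 antibody (log2 difference -0.61, SE 0.18, adjusted p = 0.028 by limma). Against the control mean of 6.26 ± 0.28 the N1N2 plus Lrp6 mean differed by -0.43 (adjusted p = 0.32 by limma) and the N1N2 mean by 0.18 (adjusted p = 0.58). A second probe for Mgam gave -0.21 for N1N2 plus Lrp6 minus N1N2. The call was lost when any of 6 arrays was left out (N1N2 replicates 1, 2 and 3 and N1N2 plus Lrp6 replicates 1, 2 and 4), with limma adjusted p-values of 0.013 to 0.072 over the 15 arrays left out in turn. The scanner software's own log ratio gave 0.03 (limma adjusted p = 0.97), so that its direction as well as its call depended on how the arrays were processed.

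Sis, the sucrase-isomaltase, was the one enterocyte gene whose N1N2 plus Lrp6 and N1N2 arrays did not overlap. Sis had log2 ratios of 8.09, 8.77, 8.98, 8.82 and 8.74 on the N1N2 plus Lrp6 arrays, and of 9.46, 9.11, 9.08, 9.23 and 8.99 on the N1N2 arrays. Control arrays had 8.78, 8.44, 9.42, 8.79 and 8.31 for Sis. Its N1N2 plus Lrp6 arrays all lay below its N1N2 arrays, with the highest at 8.98 against a lowest N1N2 value of 8.99. Such a gap in this direction occurred in 4.02% of all features. The difference was -0.50 (SE 0.19), which missed the threshold (adjusted p = 0.094 by limma). N1N2 minus control was 0.43 for Sis (adjusted p = 0.17 by limma). Without control replicate 3 both passed, at -0.50 (limma adjusted p = 0.041) and 0.60 (limma adjusted p = 0.030). Pck1, the cytosolic enzyme at the entry to gluconeogenesis, had the lowest difference of the group between N1N2 and control. Pck1 had log2 ratios of 4.35, 4.17, 4.74, 4.11 and 5.39 on the N1N2 plus Lrp6 arrays, and of 4.27, 4.80, 3.34, 4.55 and 4.49 on the N1N2 arrays. Control arrays had 4.57, 4.94, 5.46, 5.24 and 4.44 for Pck1. The lowest value was on N1N2 replicate 3 and the highest on control replicate 3, and the groups overlapped. N1N2 minus control was -0.64 (95% interval -1.25 to -0.02, adjusted p = 0.17 by limma), and without N1N2 replicate 3 it was -0.40.

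The remaining sugar genes showed no called difference. Lactase (Lct) averaged 7.36 ± 0.43 in N1N2 plus Lrp6, 7.61 ± 0.33 in N1N2 and 7.43 ± 0.25 in control (SD, n = 5 each), and trehalase (Treh) differed between N1N2 and control by 0.03. The sodium-glucose cotransporter Slc5a1, the basolateral glucose carrier Slc2a2 and the fructose carrier Slc2a5 differed between N1N2 and control by 0.31, 0.12 and -0.03. Khk, which phosphorylates fructose, differed by 0.08, and G6pc, which releases free glucose, by 0.18. On adding the Lrp6 antibody Slc2a2 differed by -0.42 and G6pc by -0.51 from N1N2, with limma adjusted p-values of 0.39 each, and G6pc had an SD of 0.99 in that group.

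Among the 14 peptide genes Ada, adenosine deaminase, an enzyme of purine breakdown, fell under Notch blockade. It had log2 ratios of 5.49, 6.40, 5.44, 5.68 and 6.45 on the N1N2 plus Lrp6 arrays, and of 6.25, 5.82, 5.48, 5.70 and 5.30 on the N1N2 arrays. Control arrays had 6.67, 6.49, 6.36, 6.93 and 6.80 for Ada. Every N1N2 array lay below every control array, a gap that occurred in this direction in 5.91% of features, and Ada was the only enterocyte gene for which it occurred in N1N2 against control. It averaged 5.71 ± 0.36 in N1N2 and 6.65 ± 0.23 in control (SD, n = 5 each), 1.92-fold lower in N1N2 (log2 difference -0.94, SE 0.22, adjusted p = 0.011 by limma). With the Lrp6 antibody added it averaged 5.89 ± 0.49 (SD, n = 5), which differed from control by -0.76 (adjusted p = 0.16 by limma; -0.90 and 0.049 without N1N2 plus Lrp6 replicate 5) and from N1N2 by 0.18 (adjusted p = 0.66). Replicates 2 and 5 of that group reached the range of the control arrays. The N1N2 call held without each array in turn, with limma adjusted p-values of 0.0049 to 0.036. With slide as a block, which rests on the one slide that holds both groups, the difference was -0.83 (adjusted p = 0.27 by limma).

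Anpep, the brush border aminopeptidase N, spread widely within groups. Anpep had log2 ratios of 3.87, 5.65, 4.67, 4.34 and 4.36 on the N1N2 plus Lrp6 arrays, and of 6.26, 4.87, 5.14, 5.28 and 4.63 on the N1N2 arrays. Control arrays had 5.05, 4.41, 4.80, 4.77 and 4.33 for Anpep. N1N2 replicate 1 and N1N2 plus Lrp6 replicate 2 were the highest of their groups, and the groups overlapped. The differences were 0.56 for N1N2 minus control and -0.66 for N1N2 plus Lrp6 minus N1N2 (limma adjusted p-values of 0.28 and 0.18). Without N1N2 replicate 1 they were 0.31 and -0.40 for Anpep, and without N1N2 plus Lrp6 replicate 2 the second was -0.93 and passed (limma adjusted p = 0.026). Dpp4, a peptidase that removes dipeptides, averaged 5.51 ± 0.22 in N1N2 plus Lrp6, 5.91 ± 0.25 in N1N2 and 5.58 ± 0.27 in control (SD, n = 5 each). N1N2 plus Lrp6 minus N1N2 was -0.39 for Dpp4, the smallest adjusted p of the group in that comparison (0.083 by limma). The meprin subunits Mep1a and Mep1b, the peptidases Ace and Enpep and the glutathione-cleaving Ggt1 lay between 0.21 and 0.36 above control in N1N2, with limma adjusted p-values of 0.25 or more. The peptide carrier Slc15a1 was 0.41 above control in N1N2. The neutral amino acid carrier Slc6a19 and both chains of the cystine carrier, Slc7a9 and Slc3a1, were 0.29, 0.25 and 0.41 above it, and none passed the test. On adding the Lrp6 antibody these carriers differed from N1N2 by -0.01, -0.46, -0.27 and -0.44 in the same order. Cubn and Amn, which together form the receptor for vitamin B12 bound to intrinsic factor, differed between N1N2 and control by 0.42 and 0.19. They differed between N1N2 plus Lrp6 and N1N2 by -0.60 and -0.10. A second probe for Cubn, also well above background in red on every array, gave 0.26 and -0.78 in these comparisons.

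The 8 cytoskeleton genes are a keratin and 7 proteins that build, link or anchor the microvilli, and none was called in any comparison by limma, with 1 unadjusted p under 0.05 in each (Espn, Ezr and Espn in the order given above). Espn, which bundles actin filaments, had the largest difference of N1N2 from control in the group with the probe used here. Espn had log2 ratios of 3.04, 4.00, 3.19, 3.12 and 2.88 on the N1N2 plus Lrp6 arrays, and of 3.68, 3.21, 3.04, 3.10 and 3.35 on the N1N2 arrays. Control arrays had 2.57, 2.65, 3.14, 3.00 and 2.73 for Espn. N1N2 plus Lrp6 replicate 2 stood above all other arrays, and 1 control array reached into the N1N2 range. N1N2 minus control was 0.46 (adjusted p = 0.13 by limma) and N1N2 plus Lrp6 minus control was 0.43 (adjusted p = 0.35). The second probe for Espn gave 0.25 and 0.23, and 0.25 is below the 0.31 of Myo1a. Without N1N2 plus Lrp6 replicate 2 the values were 0.46, which then passed (limma adjusted p = 0.031), and 0.24. Cdhr2, a cadherin that links the tips of neighbouring microvilli, had the largest difference of the group between N1N2 plus Lrp6 and N1N2. Cdhr2 had log2 ratios of 5.19, 6.13, 5.70, 5.71 and 5.59 on the N1N2 plus Lrp6 arrays, and of 6.46, 5.92, 6.06, 6.00 and 5.56 on the N1N2 arrays. Control arrays had 5.74, 5.62, 5.90, 5.99 and 5.69 for Cdhr2. The groups overlapped, with N1N2 replicate 1 highest and N1N2 plus Lrp6 replicate 1 lowest. N1N2 plus Lrp6 minus N1N2 was -0.34 (95% interval -0.68 to 0.01, adjusted p = 0.19 by limma), and -0.22 for Cdhr2 without replicate 1 of either group. Villin (Vil1), an actin-binding protein of the microvillus core, averaged 7.41 ± 0.29 in N1N2 plus Lrp6, 7.54 ± 0.32 in N1N2 and 7.44 ± 0.22 in control (SD, n = 5 each). Its 95% interval for N1N2 minus control was -0.25 to 0.44. Krt20, a keratin of mature enterocytes, Cdhr5, the partner of Cdhr2, the membrane-linking motor Myo1a, the bundler Pls1 and the linker Ezr differed between N1N2 and control by 0.18, 0.25, 0.31, 0.22 and 0.09.

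**Figure D3:**
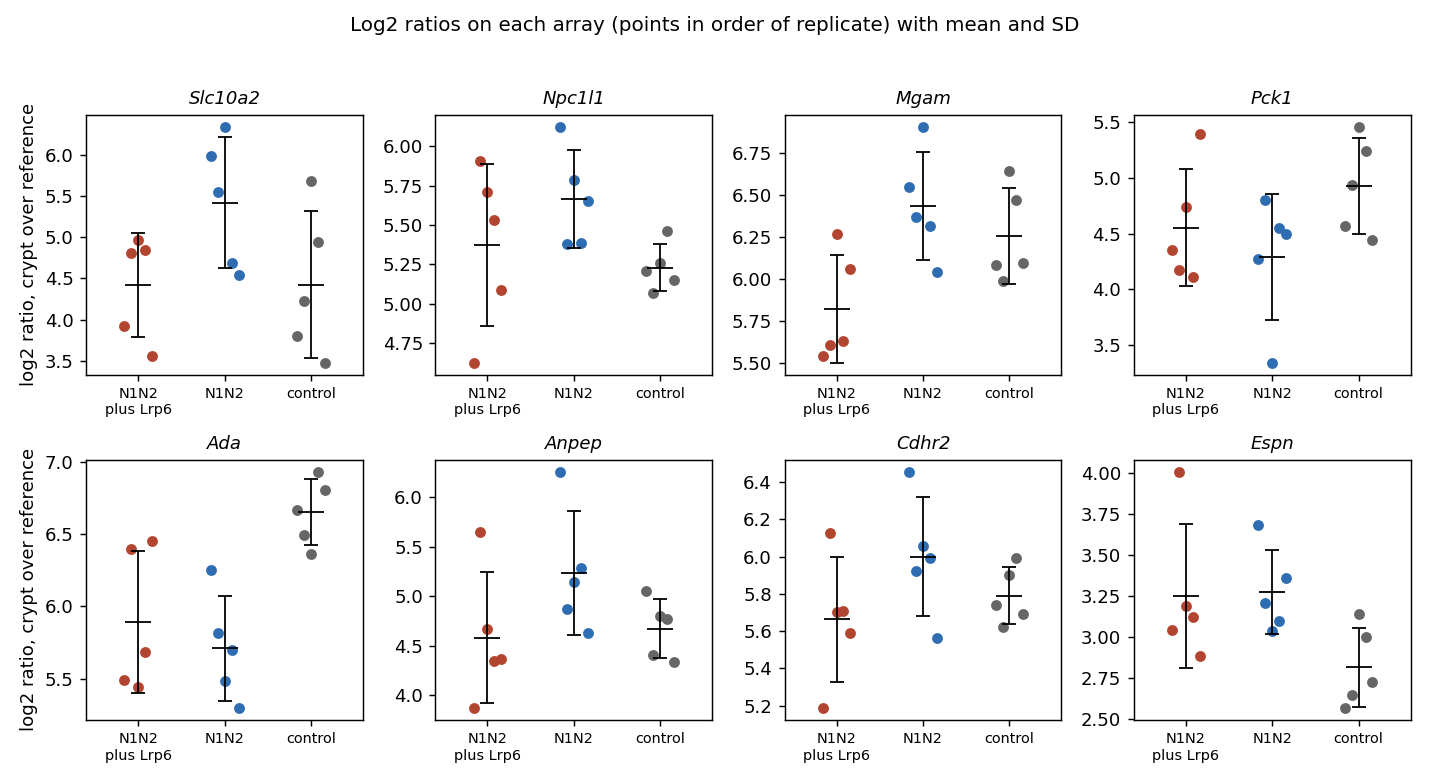
Log2 ratio of crypt over reference (y axis, 1 scale per panel) on each array for 8 enterocyte genes in N1N2 plus Lrp6, N1N2 and control crypts. Points are arrays in order of replicate, bars are the mean and SD (n = 5), and Ada shows every N1N2 array (5.30 to 6.25) below every control array (6.36 to 6.93).

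Many of the genes lay high or low together on an array. N1N2 replicate 1 had the highest value of its group for 38 of the 48 genes, against 26.8% of all features, and N1N2 replicate 5 the lowest for 24, against 17.3% of features. N1N2 plus Lrp6 replicate 1 had the lowest value of its group for 36 genes, against 34.3% of features, and replicate 2 the highest for 33, against 31.7%. In the control group the highest values were shared between replicate 4 (24 genes, against 19.9% of features) and replicate 3 (22 genes, against 26.6%). The lowest were shared between replicates 5 (21 genes, against 17.4% of features) and 2 (16 genes, against 13.9%). The median difference of the 48 genes from the control mean was -0.55, 0.39, 0.02, -0.02 and -0.09 on N1N2 plus Lrp6 replicates 1 to 5, and 0.61, 0.03, 0.31, 0.14 and -0.07 on N1N2 replicates 1 to 5. On the control arrays it was -0.06, -0.13, 0.13, 0.19 and -0.14. Leaving out 1 array moved the group medians. The median of N1N2 minus control was 0.10 without N1N2 replicate 1, and that of N1N2 plus Lrp6 minus N1N2 was -0.12 without N1N2 plus Lrp6 replicate 1.

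**Figure D4:**
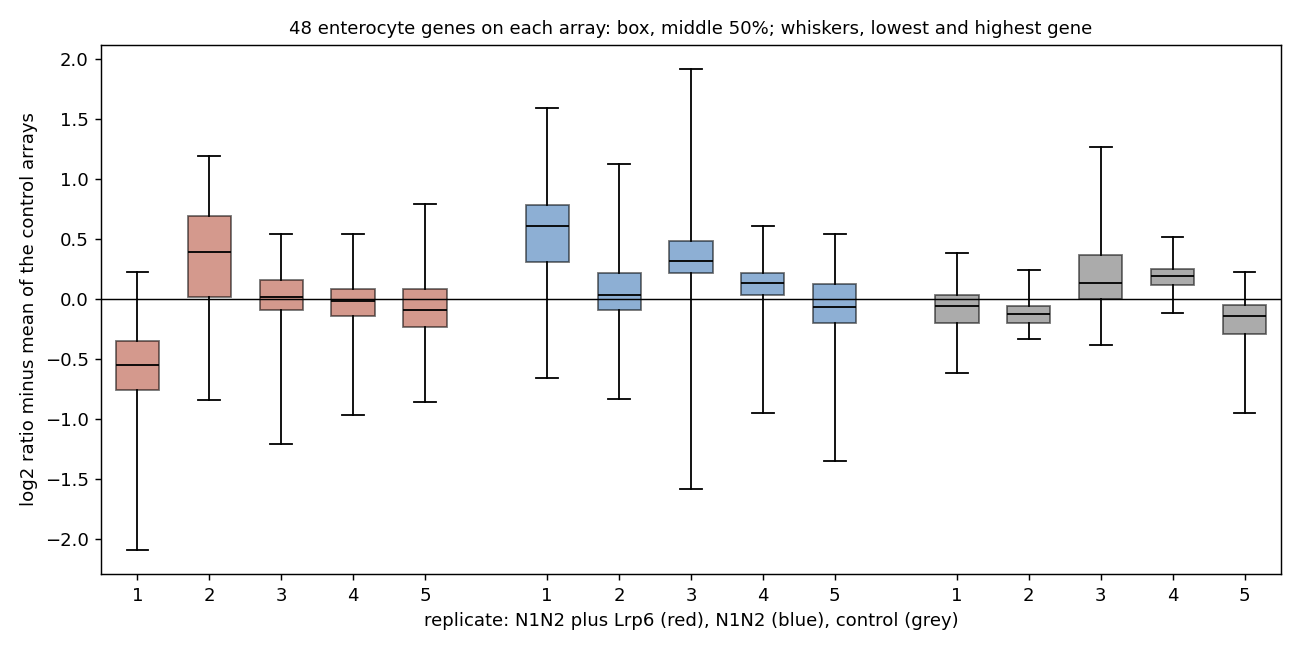
Differences of the 48 enterocyte genes from the mean of the control arrays (log2, y axis) on each of the 15 arrays (x axis, by replicate). Boxes hold the middle 50% of genes with the median as a line, and whiskers reach the lowest and highest gene; the medians run from -0.55 on N1N2 plus Lrp6 replicate 1 to 0.61 on N1N2 replicate 1.

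Further genes of the same pathways were tested beside them. In N1N2 against control 9 of these 86 genes were called, 5 higher and 4 lower, a share close to the 11.7% of all features. Of 24 tested genes of lipid and bile acid handling, 0 rose and 2 fell in N1N2 against control: Acsl3, which activates fatty acids (log2 difference -0.54, limma adjusted p = 0.013), and the lipoprotein receptor Scarb1 (-0.63, limma adjusted p = 0.026, and 0.057 with replicate number as a block). Of 15 sugar genes, 1 rose and 1 fell. Hexokinase 2 (Hk2) rose by 1.11 on the log2 scale (limma adjusted p = 0.0016). Fbp1, an enzyme of gluconeogenesis, fell by 0.76 (limma adjusted p = 0.017). Of 23 peptide, amino acid and nucleoside genes, the nucleoside carrier Slc29a1 (0.84, limma adjusted p = 0.00084) and Cbs (0.29, limma adjusted p = 0.043, and 0.053 with replicate number as a block) rose. Tmprss15, enteropeptidase, which activates trypsin, fell by 1.45 (limma adjusted p = 0.020). Of 24 brush border and apical scaffold genes, Krt18, a keratin of simple epithelia (0.83, limma adjusted p = 9.0e-05), and Baiap2l2 (0.74, limma adjusted p = 0.022; -0.43 and not called with arrays scaled to each other) rose.

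On adding the Lrp6 antibody 0 of these genes rose and 6 fell relative to N1N2: 1 of 24 lipid, 2 of 15 sugar, 1 of 23 peptide and 2 of 24 brush border genes. That is 6.98% of the 86, against 16.7% of all features (9.44% higher and 7.26% lower), so the share that fell was close to that of all features. They were the cholesterol exporter Abca1 (-0.76, limma adjusted p = 0.019), Hk2 (-0.92, limma adjusted p = 0.0050), Txnip (-0.54, limma adjusted p = 0.039), Slc29a1 (-0.40, limma adjusted p = 0.0499, and 0.083 with replicate number as a block), Krt18 (-0.58, limma adjusted p = 0.0019) and Actn4 (-0.53, limma adjusted p = 0.022). With median centring the log2 difference of Krt18 was 0.0025 and was not called (limma adjusted p = 0.996). Of the 6, the genes Hk2, Slc29a1 and Krt18 were also called higher in N1N2 against control, and both comparisons share the N1N2 arrays. Between N1N2 plus Lrp6 and control, 0 genes of the 4 lists were called by limma, with unadjusted p under 0.05 for 2, 1, 5 and 4 of them. Of the 15 calls in these lists, 1 (Hk2 in N1N2 against control) held under every alternative tried. Left out in turn, 9 of the 15 arrays each ended the call of Txnip in N1N2 plus Lrp6 against N1N2, and 11 that of Slc29a1. In N1N2 against control, 10 of the 15 ended the call of Cbs and 5 that of Scarb1.

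Markers of other crypt cells were read from the same arrays. The mean log2 ratio of the 48 enterocyte genes was 5.95 ± 0.35 in N1N2 plus Lrp6, 6.19 ± 0.23 in N1N2 and 6.01 ± 0.19 in control (SD, n = 5 each). The 11 goblet cell genes averaged 4.96 ± 0.27, 5.64 ± 0.16 and 4.58 ± 0.09 in the same groups, with 7 of 11 higher in N1N2 than in control and 6 of 11 lower in N1N2 plus Lrp6 than in N1N2 by limma, and 3 higher in N1N2 plus Lrp6 than in control. The 8 cycling cell genes averaged -0.97 ± 0.22, -1.74 ± 0.16 and -1.16 ± 0.18, with 6 of 8 lower in N1N2 than in control and 7 of 8 higher in N1N2 plus Lrp6 than in N1N2. The 5 tested Paneth cell genes averaged 4.63 ± 0.68, 5.09 ± 0.21 and 4.69 ± 0.22, with 0 called by limma in any comparison and 2, 0 and 0 at an unadjusted p under 0.05. The 6 tested stem cell genes averaged 1.43 ± 0.29, 1.19 ± 0.33 and 1.62 ± 0.24, with 1 higher and 2 lower in N1N2 than in control, 2 higher in N1N2 plus Lrp6 than in N1N2 and 1 lower in N1N2 plus Lrp6 than in control. The 9 enteroendocrine genes averaged 4.60 ± 0.16, 4.69 ± 0.12 and 4.19 ± 0.19, with 1 higher than control in N1N2 plus Lrp6 and 1 in N1N2. In N1N2 minus control their largest log2 difference was 3.83, while the median was 0.21 and 3 of 9 lay below 0. For N1N2 plus Lrp6 minus control the largest was 3.29 and the median 0.15, with 2 below 0. The 4 tested tuft cell genes averaged 0.37 ± 0.19, 0.35 ± 0.13 and 0.23 ± 0.07, with 1 higher in N1N2 than in control. Stromal and muscle genes (12) averaged -3.86 ± 0.28, -3.42 ± 0.15 and -3.07 ± 0.34. Of these, 2 were called lower in N1N2 than in control, 4 lower in N1N2 plus Lrp6 than in N1N2 and 2 lower in N1N2 plus Lrp6 than in control, where 10 of the 12 had an unadjusted p under 0.05. The 9 tested immune genes averaged 1.82 ± 0.21, 1.83 ± 0.29 and 2.23 ± 0.20, with 2 lower in N1N2 than in control. The 3 tested lung surfactant genes (Sftpa1, Sftpc and Sftpd) averaged 2.70 ± 0.78, 0.07 ± 0.06 and 0.52 ± 0.42. All 3 were called higher in N1N2 plus Lrp6 than in N1N2 and 2 higher than in control. Sftpa1 was well above background in red on 5 N1N2 plus Lrp6, 0 N1N2 and 0 control arrays. For Sftpc these counts were 5, 4 and 3, and for Sftpd they were 5 in each group. Sftpa1 thus passed the filter on dim probes only through the N1N2 plus Lrp6 group, so its higher level there is not independent of the filter. Sftpb, also listed, did not pass that filter, with counts of 3, 0 and 0 for its brighter probe. The part of these differences in the values of the enterocyte genes was not tested.

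**Figure D5:**
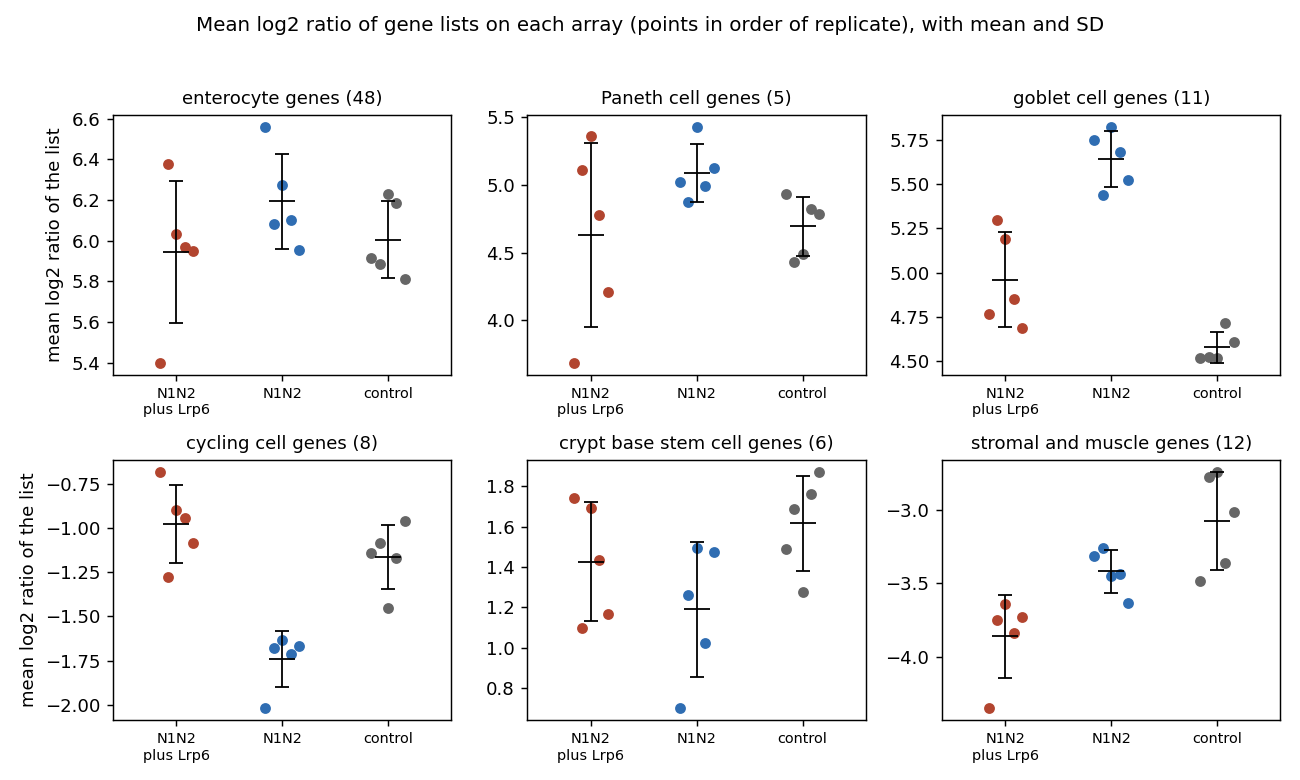
Mean log2 ratio (y axis, 1 scale per panel) of the 48 enterocyte genes and of 5 lists of markers of other cells on each array of the N1N2 plus Lrp6, N1N2 and control groups. Points are arrays, bars the mean and SD (n = 5); the goblet list averages 5.64 in N1N2 and 4.58 in control, and the enterocyte genes 6.19 and 6.01.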

How the data were processed

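Crypt RNA labelled with Cy5 and a universal mouse reference labelled with Cy3 were hybridised together on 2-colour Agilent arrays without a dye swap, per the labels' protocols. The deposited scanner files were read with Feature Extraction 11.0.1.1 from arrays designed on mm9, per the file headers, and give median spot and background intensity in both channels. They also hold the scanner software's log10 ratio, per the file headers. The authors deposited a table of log2 values, for which the submitters' processing notes name R 3.0.0 and limma 3.6.7. Its columns correlated with the ratios computed here at r of at least 0.99998. Their slopes on those ratios were 0.9987 to 1.0034, so the scale and direction of the deposited values are log2 of crypt over reference.

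In R 4.3.3 with limma 3.58.1, spots flagged as uneven or as outliers were left out, background was corrected by normexp (offset 50), and log2 ratios were put through loess on each array, where control spots had weight 0. Of 39429 probes, 28488 were kept, those whose red signal cleared background on 4 or more of the 5 arrays of any group. Each gene took the kept probe with the highest mean red signal, which left 23939 features. One fit (lmFit and eBayes) over all 15 arrays gave two-sided p-values adjusted by Benjamini-Hochberg over all features, with a threshold of 0.05. No spot was saturated, and the number of arrays limits the precision.

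Values on every array are given for genes past the threshold and for the 2 genes of each of the 4 roles with the largest difference, and Sis was added after its values were seen. From the lists of further pathway genes, up to 3 per list and comparison were named, and 1 listed gene was left out of these counts and is not reported here. The 48 genes, the pathway lists and the markers were chosen with earlier results of these data known. Alternatives were other background, normalization, filter, probe and value choices, slide and replicate as blocks, 2 groups per fit, leaving out each array, and, chosen after seeing the data, the red channel alone.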

Additional observations from a re-analysis of the deposited data

Results flagged for a closer look

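Within groups of 5 arrays, 6 of 78 sets of values held an array that stood apart from the other 4 by Dixon's criterion. For independent sets chance meets that criterion in about 1 in 20. The sets here share arrays, and some share genes, so their count cannot be set against that rate. Espn was at 4.00 on N1N2 plus Lrp6 replicate 2, while the other 4 arrays of the group lay between 2.88 and 3.19. The mean log2 ratio of the 10 sugar genes was 5.24 on N1N2 plus Lrp6 replicate 1, against 5.90 to 6.13 on the others of its group. On the same array the further lipid and bile acid genes averaged 2.03, against 2.42 to 2.53, and the further peptide, amino acid and nucleoside genes 3.25, against 3.76 to 3.91. Its stromal and muscle genes averaged -4.35, against -3.84 to -3.64. The cycling cell genes averaged -2.02 on N1N2 replicate 1, against -1.71 to -1.63 on the other N1N2 arrays. N1N2 plus Lrp6 replicate 1 had the lowest value of its group for 36 of the 48 enterocyte genes, and N1N2 replicate 1 the highest for 38.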

How the results depend on the processing

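Of 28 alternatives for Ada in N1N2 against control, 25 kept the call, and it was lost with arrays scaled to each other (-2.72, limma adjusted p = 0.14), with slide as a fixed block (-0.83, 0.27) and with the red channel alone (-0.63, 0.058), a setting chosen after seeing the data. Of 27 for Mgam in N1N2 plus Lrp6 against N1N2, 16 kept it, and beside 6 single arrays left out it was lost with median centring (-0.46), scaling (-0.15), the mean of its probes (-0.41), the red channel alone (-0.65) and the scanner software's log ratio (0.028). In N1N2 against control, 0 enterocyte genes were called with scaling, the fixed slide block or the red channel alone. With only the 2 groups fitted 3 were called (Ada, Espn and Npc1l1). Over all features the 2 groups alone gave 4085 calls there and the red channel 2375, against 2806 as reported. Between N1N2 plus Lrp6 and N1N2 the number was 0 with median centring, scaling, the scanner's log ratio or the mean of probes. It was 2 with the red channel alone (Abcg5 and Dpp4), where 3552 of all features were called, against 3999 as reported. With slide as a random block it was 6 (Abcg8, Dpp4, Ezr, Mgam, Sis and Slc3a1). That block gave 3 in N1N2 plus Lrp6 against control (Ada, Espn and Mgam). The random block had a correlation of -0.18. Where nearly every slide holds 1 group, a negative value narrows the standard errors of group differences, so its extra calls are no added support. Over all features it also called more in these comparisons, 7041 against 3999 and 2915 against 90. Leaving out single arrays gave 1 to 2, 0 to 3 and 0 to 1 genes called in N1N2 against control, N1N2 plus Lrp6 against N1N2 and N1N2 plus Lrp6 against control, with Dpp4 and Ezr added without N1N2 replicate 5, and Anpep, Apoa1 and Dpp4 called without N1N2 plus Lrp6 replicate 2.

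The median of the 48 genes in N1N2 against control was -1.52 with scaling, which multiplies the log ratios of whole arrays, and 0.10 to 0.29 without single arrays. In N1N2 plus Lrp6 against N1N2 it was 0.030 with median centring, 0.19 with scaling and -0.40 to -0.12 without single arrays. For N1N2 plus Lrp6 minus control it was -1.35 with scaling and -0.15 to 0.08 without single arrays. Over all features, 2806 were called in N1N2 against control (56.1% higher), and 1252 with median centring (45.8% higher), 675 with scaling (70.2% higher), 109 with the fixed slide block and 1526 to 3899 without single arrays. Adding the Lrp6 antibody to N1N2, 3999 were called (56.5% higher), and 375 with scaling, 7041 with the random slide block, whose correlation was -0.18, 3414 with median centring (77.2% higher) and 2514 to 4742 without single arrays. Between N1N2 plus Lrp6 and control, 90 were called, and 30 with median centring, 1 with scaling, 142 with the scanner's log ratio (38.7% higher, against 58.9%), 50 with the 2 groups alone, 2915 with the random slide block and 26 to 350 without single arrays. No slide held both N1N2 plus Lrp6 and another group, so the fixed block gave no value there.

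Some single genes changed sign, nearly all without a call in either setting. In N1N2 against control, scaling gave -0.37 for Espn, -1.39 for Cdhr2, -0.24 for Slc10a2, -1.06 for Npc1l1, -0.74 for Anpep, -1.52 for Mgam, -1.92 for Sis and -0.43 for Baiap2l2, median centring -0.021 for Cdhr2 and -0.0074 for Mgam, and the red channel -0.14 for Mgam. In N1N2 plus Lrp6 against N1N2, scaling gave 0.23 for Espn, 0.10 for Cdhr2, 0.11 for Npc1l1 and 0.17 for Sis, median centring 0.12 for Espn, 0.023 for Cdhr2 and 0.0025 for Krt18, the scanner's log ratio 0.056 for Espn and 0.25 for Npc1l1, and the red channel -0.091 for Ada and 0.0077 for Anpep. In N1N2 plus Lrp6 against control, scaling gave -0.14 for Espn and -0.94 for Npc1l1, median centring 0.0021 for Cdhr2 and 0.10 for Anpep, the scanner's log ratio 0.97 for Slc10a2, 0.062 for Pck1 and 0.33 for Mgam, the red channel -0.33 for Npc1l1 and 0.018 for Anpep, and the random slide block 0.029 for Slc10a2. Without single arrays Espn ran from -0.22 to 0.074 in N1N2 plus Lrp6 against N1N2, and in N1N2 plus Lrp6 against control Slc10a2 ran from -0.24 to 0.31, Anpep from -0.36 to 0.085 and Sis from -0.17 to 0.10. The cause of these changes was not tested.

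The replicate numbers were not taken to pair the arrays, since the deviations of same-numbered arrays did not all correlate above 0.1. Between N1N2 and control they did in 4 of 5 pairs (-0.01 to 0.63, with the best match in 2), a hint from the data and not from the design, and in 0 of 5 pairs between N1N2 plus Lrp6 and either of the other groups. With the replicate number as a block, 2 enterocyte genes (Mgam and Slc10a2) were called in N1N2 plus Lrp6 against N1N2, 1 (Ada) in N1N2 against control, and 2433, 3709 and 44 features in N1N2 against control, N1N2 plus Lrp6 against N1N2 and N1N2 plus Lrp6 against control. Beside them it ended the calls of Scarb1 and Cbs in N1N2 against control and of Slc29a1 in N1N2 plus Lrp6 against N1N2. Reference signals near background limit the ratios of 10 of the 48 genes.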
